A study of Mus musculus with 8 samples.

Results

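CAR and PXR are the nuclear receptors through which liver cells sense drugs and other foreign compounds, and the data on them here came from the livers of 8 female Ames dwarf (df/df) mice, 1 array per liver. The genes described are the 2 receptors, Nr1i3 (CAR) and Nr1i2 (PXR), and 8 cytochrome P450 genes of the Cyp2b and Cyp3a families. They were taken as the probe sets whose platform annotation names one of these symbols, which gave 13 of the 12488 probe sets, or 10 of 8949 annotated genes, on the Affymetrix mouse U74Av2 array. Ames dwarf mice are small and long-lived, and their pituitary does not make thyroid-stimulating hormone, prolactin or growth hormone. All 8 mice ate pelleted standard food without restriction and were 24 to 26 months old. They form 1 group, and no normal-sized or food-restricted mice were analysed here, so the data show how the genes differed from liver to liver and whether targets followed their receptors.

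CAR and PXR each pair with the retinoid X receptor and bind short repeated half-sites near their target genes. Cyp2b10 is the classic CAR target in mouse liver and Cyp3a11 the classic PXR target, and each receptor can also act on the other's targets. CAR is held in the cytoplasm until a signal releases it, so the amount of its messenger RNA is only part of its activity. The encoded cytochromes oxidise drugs, steroids and bile acids. Cyp2b9 and Cyp2b13 are expressed more in the livers of female mice than of males, and growth hormone patterns control that difference.

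The arrays shared their scale, with median signals between 155.45 and 180.2, and correlated pairwise with r between 0.907 and 0.973 over the tested probe sets. The spike-in controls were brighter on arrays 1 to 4 (mean log2 signal 8.39 to 8.67) than on arrays 5 to 8 (7.88 to 8.18), although the labels name no batch. Hepatocyte markers were at high signals in every liver, for example Alb at 25309.5 or above and Apoa1 at 22843.5 or above. Of the 3 bile duct markers on the array, 2 had a signal at or below the floor of 11.2 in at least 1 liver. RNA of the whole liver was measured, so fewer cells of a type cannot be told apart from less RNA per cell.

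Nr1i3, which encodes CAR, differed 2.84-fold between livers on its brightest probe set (102171_r_at). The signal was 6575.6, 6786.1, 7327.7, 3549.8, 10091.5, 7633.0, 7248.6 and 5238.4 in livers 1 to 8, or 6806 ± 1892 (SD, n = 8). Liver 5 was highest and livers 4 and 8 were lowest, with liver 4 at 0.490 times the median of the others. On a second probe set (104506_at) the signal ranged from 2669.8 to 4661.8 with a median of 3747, and on the last (104507_g_at), whose sequence is shared within its group, from 3174.1 to 6479.3 with a median of 5281. All 3 probe sets were lowest in liver 4 and highest in liver 5. The brightest one correlated with the others across livers at r = 0.855 and 0.949, but 104506_at placed liver 2 second lowest and 104507_g_at placed liver 1 there.

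Cyp2b13 and Cyp2b9 followed the same order at the low end. Cyp2b13, a steroid-hydroxylating cytochrome that predominates in females, had signals of 7266.0, 6603.8, 10060.9, 3053.6, 9956.7, 8256.3, 6113.4 and 4817.0 in livers 1 to 8. Livers 3 and 5 were highest and livers 4 and 8 lowest, a 3.29-fold range. Cyp2b9 ranged 2.17-fold, from 4046.4 in liver 4 over a median of 7233 to 8773.7 in liver 5, with liver 8 next to the lowest at 4507.8. Cyp2b10 ranged only 1.79-fold, from 957.3 in liver 4 over a median of 1393 to 1711.0 in liver 3, and liver 8 was again second lowest at 1272.9. Cyp2b19, which is known from skin keratinocytes, read 32.8 to 46.9 and lay below the signal of 162 needed for testing. No detection calls were used here, so whether that signal exceeds background is unknown.

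**Figure D1:**
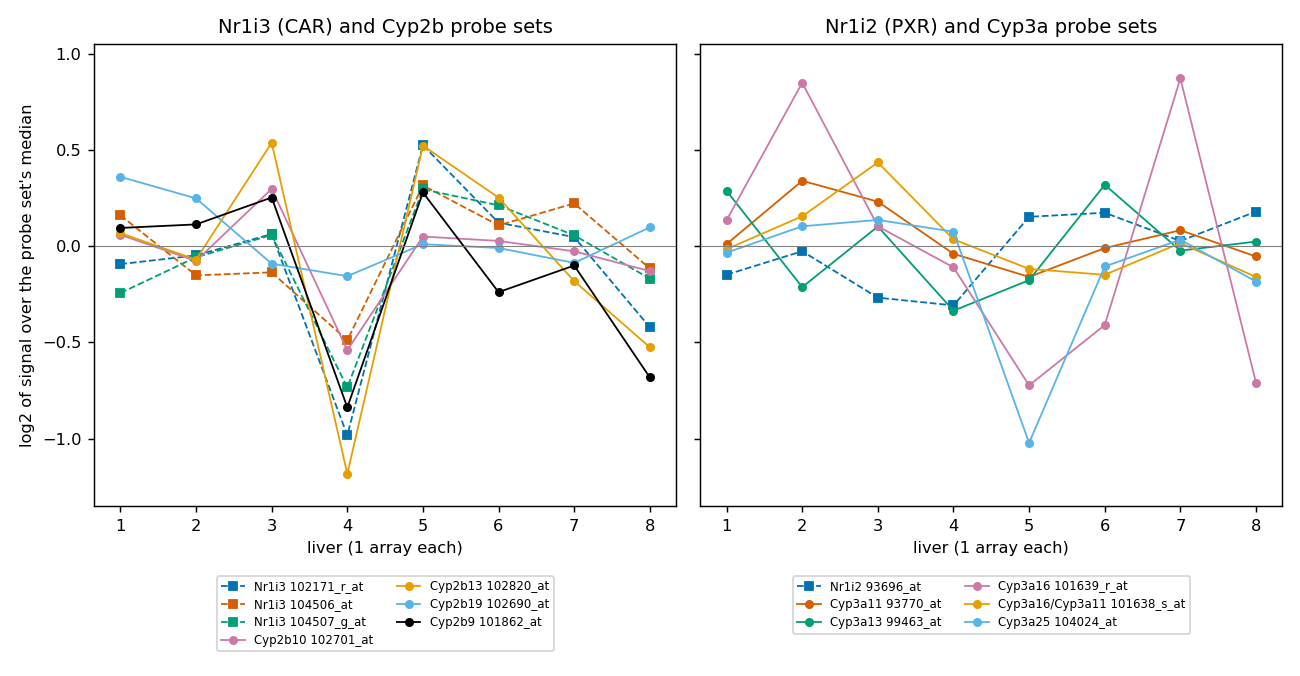
Signal of each of the 13 probe sets in each liver, as log2 of the signal over that probe set's median (vertical axis), against liver number (horizontal axis), with Nr1i3 and Cyp2b on the left, Nr1i2 and Cyp3a on the right, receptors as squares on dashed lines and cytochromes as circles on solid lines. The Nr1i3, Cyp2b9, Cyp2b10 and Cyp2b13 points dip together in liver 4, and Cyp3a25 has a single low point, in liver 5.

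Cyp2b10, Cyp2b13 and Cyp2b9 lie next to each other among the protein-coding genes of chromosome 7 in assembly GRCm38.p6, and the start regions of Cyp2b9 and Cyp2b13 are nearly identical. The sequences of all 3 before the start site are printed to show how alike they are, credited to RefSeq, build GRCm38.p6, each ending where the gene's outermost annotated transcript begins, which cuts the Cyp2b13 and Cyp2b9 stretches short of 250 bases. Capitals mark AGGTCA, a half-site that nuclear receptors of this kind bind, on either strand.
Cyp2b13, chr7:26061245-26061387, + strand: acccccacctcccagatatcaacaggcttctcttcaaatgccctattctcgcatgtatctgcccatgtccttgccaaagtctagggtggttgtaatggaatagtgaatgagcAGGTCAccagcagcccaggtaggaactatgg
Cyp2b9, chr7:26173159-26173349, + strand: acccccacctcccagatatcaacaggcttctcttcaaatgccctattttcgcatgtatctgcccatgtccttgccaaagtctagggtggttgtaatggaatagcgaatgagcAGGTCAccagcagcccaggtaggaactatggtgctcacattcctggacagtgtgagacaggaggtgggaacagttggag
Cyp2b10, chr7:25897408-25897657, + strand: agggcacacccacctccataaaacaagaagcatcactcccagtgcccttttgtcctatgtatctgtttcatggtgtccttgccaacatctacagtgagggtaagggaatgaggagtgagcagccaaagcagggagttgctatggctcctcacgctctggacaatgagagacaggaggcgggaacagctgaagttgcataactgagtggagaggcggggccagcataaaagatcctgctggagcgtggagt
The windows compared ran for 250 bases, so for Cyp2b13 and Cyp2b9 they went on past the printed stretch into the annotated gene. Over these windows the 2 genes differed at 2 positions, C48T and T104C, both within the printed bases. Each is written as the Cyp2b13 base, the position from the first base printed, and the Cyp2b9 base. In pairwise alignments of the same windows, Cyp2b10 was 71.0% identical to Cyp2b13 and Cyp2b19 was 65.1% identical to it. Whether the Cyp2b9 and Cyp2b13 probe sets share hybridisation was not tested. The half-site stood in the 250-base windows of Cyp2b9, Cyp2b13 and Cyp2b19 but not of Cyp2b10, and a window without these letters says nothing of elements farther away.

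Whether the spread of a gene exceeded what is usual at its signal was tested over all 6211 tested probe sets, by setting its variance across the 8 livers against the typical variance at that signal. The adjusted p is that of a chi-square test with Benjamini-Hochberg adjustment. Of the 11 member probe sets bright enough to test, 4 passed, against 11.3% of all tested probe sets (702 of 6211). They were Cyp2b13 (SD 0.57 on the log2 scale, adjusted p = 3.18e-07), Nr1i3 on 102171_r_at (0.44, adjusted p = 0.00122), Cyp2b9 (0.42, adjusted p = 0.00361) and Cyp3a25 (0.38, adjusted p = 0.0224). The other Nr1i3 probe sets did not pass, with SDs of 0.26 on 104506_at and 0.32 on 104507_g_at. The median SD was 0.26 for the 11 members and 0.24 for all tested probe sets. With liver 4 left out, Cyp2b13 (adjusted p = 0.0111) and Cyp3a25 (adjusted p = 0.00632) passed. Without livers 4 and 8, none of Nr1i3, Cyp2b9 and Cyp2b13 did. The variance test of limma, which sets each variance against the spread of variances, called 0 of 6211 probe sets, with 425 (6.84%) at an unadjusted p under 0.05. Among these were 2 of the 11 members (Cyp2b13, limma adjusted p = 0.549, and Nr1i3 on 102171_r_at, limma adjusted p = 0.711).

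Liver 4 was the lowest liver for 8 of the 11 tested member probe sets, against 22.6% of all tested probe sets. These 8 were the 3 of Nr1i3 and those of Nr1i2, Cyp2b9, Cyp2b10, Cyp2b13 and Cyp3a13. Livers 4 and 8 were both lowest for 4 of the 11 (Nr1i3 on 102171_r_at, Cyp2b9, Cyp2b10 and Cyp2b13), against 10.9% of all tested probe sets.

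CAR and the 3 tested Cyp2b genes had positive correlations over the 8 livers, but no pair passed adjustment over the whole array. Agreement was measured as Pearson's r of log2 signals over the 8 livers with an exact two-sided permutation test over all 40320 pairings. It was computed between each receptor and every tested probe set, and p-values were adjusted over all of them. Across the 12 pairs of a receptor with a tested cytochrome gene, 0 passed, and 3 had an unadjusted p under 0.05, all of them Nr1i3 with a Cyp2b gene. For Nr1i3, 0 of 6208 probe sets passed in the exact permutation test and 1177 (19%) had an unadjusted p under 0.05, so that the 3 of 3 Cyp2b genes and 0 of 3 Cyp3a genes are to be read against 19%. For Nr1i2 0 of 6210 probe sets passed and the unadjusted share was 6.78%, with 0 of 6 cytochrome genes. By Spearman's rho the unadjusted shares were 9.97% for Nr1i3 and 4.86% for Nr1i2.

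Cyp2b13 followed Nr1i3 with r = 0.930 (exact permutation p = 0.00159, adjusted p = 0.119) and Spearman's rho = 0.833 (exact permutation p = 0.0154). That r ranked at place 41 among 6208 probe sets. It was 0.779 without livers 4 and 5, the 2 farthest from the Nr1i3 median, and 0.634 without livers 4 and 8.
For Cyp2b9, r with Nr1i3 was 0.854 (exact permutation p = 0.00533, adjusted p = 0.138), and rho was 0.690 (exact permutation p = 0.0694). It ranked at place 207, with r = 0.682 without livers 4 and 5 and 0.328 without livers 4 and 8. In Cyp2b10, r was 0.810 (exact permutation p = 0.0321, adjusted p = 0.226) and rho 0.643 (exact permutation p = 0.0962). It ranked at place 324, with r = 0.557 without livers 4 and 5 and 0.0788 without livers 4 and 8. The relations of Cyp2b10 and Cyp2b9 to Nr1i3 thus rested on the low livers 4 and 8, and without those livers none of the 3 pairs had an unadjusted p under 0.05.
Centred within arrays 1 to 4 and 5 to 8, the 3 values of r were 0.956, 0.990 and 0.844 for Cyp2b13, Cyp2b9 and Cyp2b10. On the Nr1i3 probe set 104506_at they were 0.698, 0.622 and 0.617, and none had an unadjusted p under 0.05 (the lowest exact permutation p was 0.0519). On 104507_g_at they were 0.875, 0.695 and 0.783 (exact permutation p = 0.00714, 0.0512 and 0.0410), with a lowest adjusted p of 0.257. Regression on the Nr1i3 signal in limma gave adjusted p = 0.020 for Cyp2b13, 0.0409 for Cyp2b9 and 0.114 for Cyp2b10, and it called 142 of 6208 probe sets (2.29%), with 20.5% at an unadjusted p under 0.05. The same regression on Nr1i2 called 0 of 6210 probe sets, with 5.99% at an unadjusted p under 0.05. Over the other settings of the permutation test, adjusted p lay between 0.0748 and 0.661 for Cyp2b13, 0.0887 and 0.877 for Cyp2b9, and 0.116 and 0.966 for Cyp2b10. A correlation was to be withheld where a gap of over 50% of the range parted at least 2 livers from the rest, and no pair given here had one. That rule leaves out a single far liver, such as liver 5 for Cyp3a25.

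**Figure D2:**
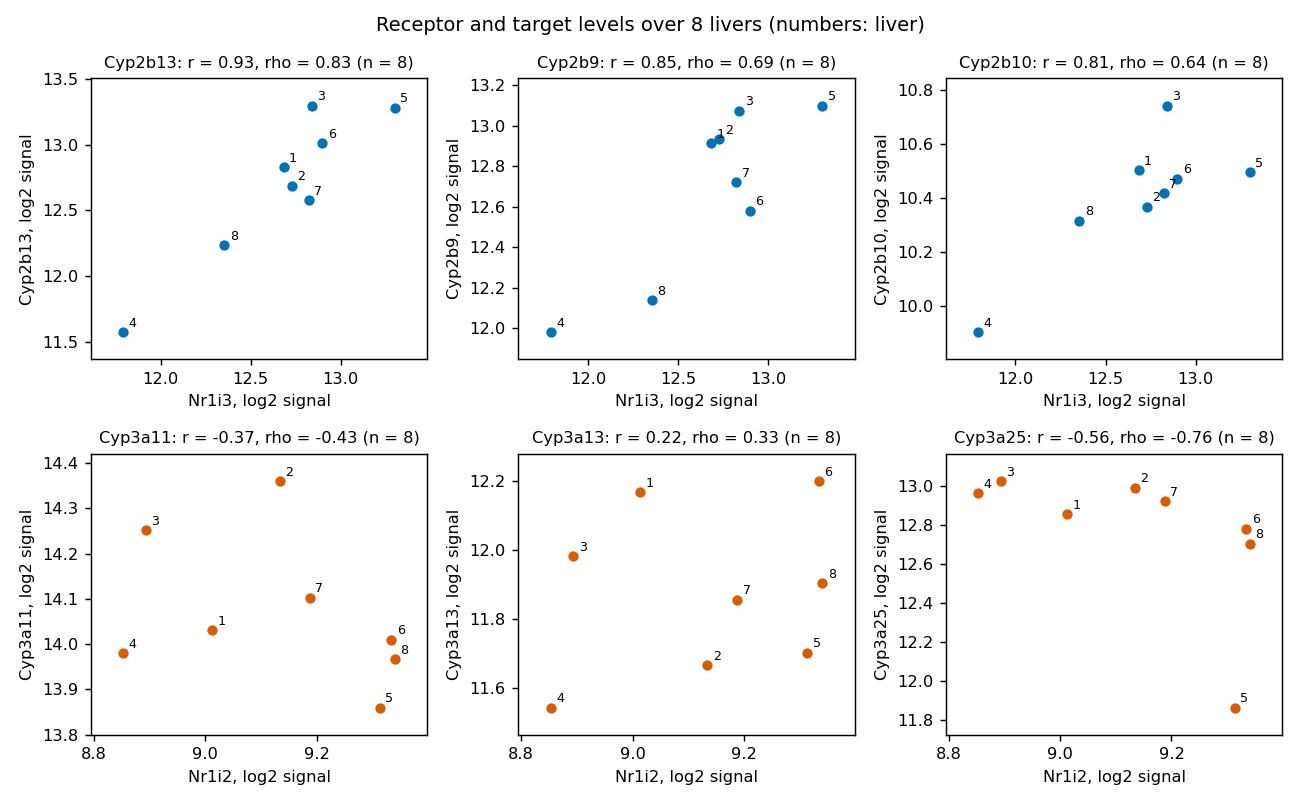
Log2 signal of Nr1i3 against Cyp2b13, Cyp2b9 and Cyp2b10 (upper row) and of Nr1i2 against Cyp3a11, Cyp3a13 and Cyp3a25 (lower row), 1 point per liver with its number. The upper panels rise with Nr1i3, with liver 4 at the lower left of each. In the lower panels r is -0.370, 0.219 and -0.559. No pair in either row passed adjustment over the whole array.

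The Cyp2b genes also tracked each other. Cyp2b10 and Cyp2b13 correlated at r = 0.932 (exact permutation p = 0.000496, rho = 0.905), Cyp2b9 and Cyp2b13 at r = 0.891 (exact permutation p = 0.00275, rho = 0.810), and Cyp2b9 and Cyp2b10 at r = 0.821 (exact permutation p = 0.00375, rho = 0.738). Adjusted over 6210 probe sets, these exact permutation p-values became 0.125 (Cyp2b13 as the fixed gene), 0.110 and 0.113 (Cyp2b9 as the fixed gene). With the other gene of each pair fixed, the adjusted exact permutation p was 0.249 (Cyp2b10), 0.1725 (Cyp2b13) and 0.3005 (Cyp2b10). None passed either way. The unadjusted share of all tested probe sets was 17.1% for Cyp2b13 and 18.1% for Cyp2b9. Without livers 4 and 8 the values of r were 0.743, 0.534 and 0.461 in the same order.

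Livers 4 and 8, where these genes were lowest, were also those with the strongest inflammatory signals. The summed signal of 10 interferon-response genes was 60725 in liver 4 and 43573 in liver 8, against 3751 to 15126 in the other livers. For 11 acute-phase genes it was 141689 in liver 4 and 109004 in liver 8, against 66042 to 91539.5 in the others. Of these 11, 7 were highest in liver 4, whereas Hp was highest in liver 3, Hpx in liver 1, and Fga and Fgb in liver 2. Macrophage and Kupffer cell markers summed to 14823 in liver 4 and 10186 in liver 8, against 3070.3 to 5946 elsewhere. Of the 8 markers on the array 1 was at or below the floor of 11.2 in some liver. With Nr1i3, 9 of 10 interferon-response, 6 of 11 acute-phase and 4 of 6 tested macrophage genes correlated negatively at an unadjusted exact permutation p under 0.05, against 8.42% of all tested probe sets. None of the 3 lists had a member that correlated positively at that level. The part of inflammation, of the cells that came with it or of array brightness in the Nr1i3 and Cyp2b values was not tested.

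**Figure D3:**
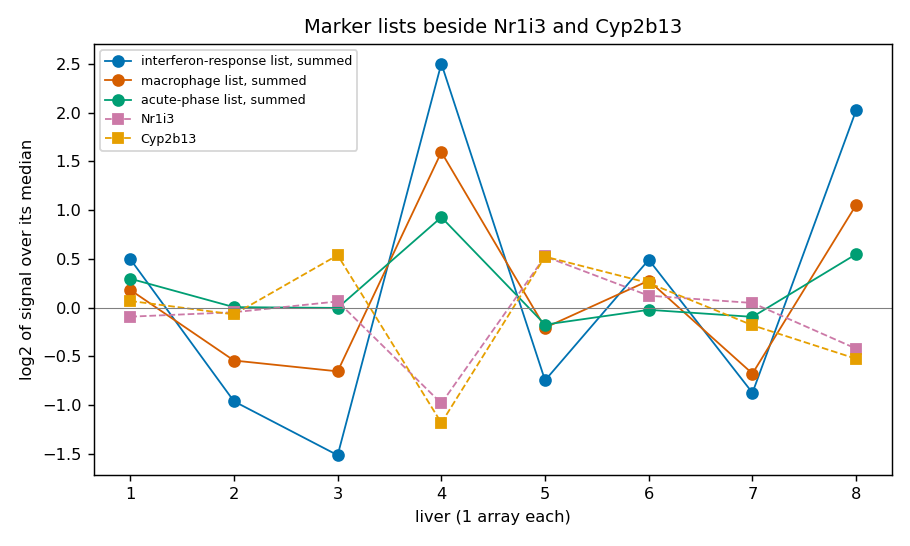
Summed signals of the interferon-response, macrophage and acute-phase lists (circles, solid lines) and the signals of Nr1i3 and Cyp2b13 (squares, dashed lines) in each liver, as log2 over each series' median. The sums peak in livers 4 and 8, where Nr1i3 and Cyp2b13 are lowest, though not every acute-phase gene does.

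PXR did not pass the variance test, and no cytochrome gene passed the correlation test with it. The signal of Nr1i2 was 566 ± 75.3 (SD, n = 8), from 462.4 in liver 4 over a median of 573 to 648.4 in liver 8. Livers 5 to 8 (583.1 to 648.4) all lay above livers 1 to 4 (462.4 to 562). The spike-in controls parted the same arrays and were dimmer on arrays 5 to 8. Centred within these groups of arrays, the SD of Nr1i2 on the log2 scale fell from 0.196 to 0.103. The part of array brightness in this was not tested. In liver 8, where PXR was highest, CAR was second lowest on 102171_r_at, though not on its other 2 probe sets. Nr1i2 and Nr1i3 correlated at r = 0.503 (exact permutation p = 0.211, adjusted p = 0.489, rho = 0.333). Leaving out livers 4 and 5 made this r -0.338.

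Cyp3a11, the main PXR target and a drug- and steroid-oxidising cytochrome, was bright and even, at 17296 ± 2022 (SD, n = 8). It ranged 1.41-fold, from 14867.6 in liver 5 over a median of 16615 to 21020.6 in liver 2. Liver 4 was not low for this gene, at 0.966 times the median of the others. Its r with Nr1i2 was -0.370 (exact permutation p = 0.369, adjusted p = 0.910) and its r with Nr1i3 was 0.0340 (exact permutation p = 0.931, adjusted p = 0.972).
A further probe set (101638_s_at) is annotated to both Cyp3a16 and Cyp3a11, so its signal cannot be given to either. It ranged from 17897.7 in liver 8 over a median of 20008 to 27041.2 in liver 3. With Nr1i2 it gave r = -0.724 (exact permutation p = 0.0310, adjusted p = 0.692) and rho = -0.833 (exact permutation p = 0.0154), and r was -0.338 when centred within arrays 1 to 4 and 5 to 8. Cyp3a16 alone, a female and perinatal form, read 89.9 to 271.5 on a probe set (101639_r_at) that was too dim to test.

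The start regions of the pair that shares a probe set are printed next, with AGGTCA and a related half-site, AGTTCA, in capitals on either strand.
Cyp3a11, chr5:145879855-145880104, - strand: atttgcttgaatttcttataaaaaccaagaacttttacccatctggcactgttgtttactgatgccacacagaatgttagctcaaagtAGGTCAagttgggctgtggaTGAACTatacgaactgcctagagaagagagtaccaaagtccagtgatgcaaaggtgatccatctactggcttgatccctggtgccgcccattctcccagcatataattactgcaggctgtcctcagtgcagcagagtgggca
Cyp3a16, chr5:145469741-145469973, - strand: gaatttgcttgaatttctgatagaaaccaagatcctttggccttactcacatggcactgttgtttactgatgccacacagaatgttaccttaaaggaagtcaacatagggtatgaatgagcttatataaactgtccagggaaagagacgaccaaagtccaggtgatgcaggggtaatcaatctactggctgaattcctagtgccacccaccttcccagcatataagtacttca
Over windows of 250 bases these regions were 76.6% identical, and Cyp3a16 held neither half-site. The window of Cyp3a16 runs past its printed stretch into the annotated gene, and that of Cyp3a13 lies mostly inside its annotated gene. Of the 10 genes, 5 held AGGTCA in their 250-base window, against 14.0% of 32851 promoter windows, and Cyp3a11 alone held the other half-site, against 11.8%. The 5 were Cyp2b9, Cyp2b13, Cyp2b19, Cyp3a11 and Cyp3a25, of which the first 2 have nearly identical windows. These matches are descriptions of letters and not evidence of binding.

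Cyp3a25, like Cyp3a11, was lowest in liver 5 and second lowest in liver 8, whereas Cyp3a13 was lowest in liver 4. Cyp3a25, a cytochrome of liver and gut, had signals of 7391.2, 8127.8, 8315.4, 7970.0, 3724.6, 7031.7, 7745.1 and 6661.4 in livers 1 to 8. Liver 5 alone was low, 2.23-fold below the highest, and it was the liver with the highest Nr1i3. The correlation of Cyp3a25 with Nr1i3 was r = -0.542 (exact permutation p = 0.195, adjusted p = 0.471), and without liver 5 it was 0.0141. Without livers 4 and 5 it was 0.582. It stayed negative without liver 4 alone (-0.640) and without livers 4 and 8 (-0.931, exact permutation adjusted p = 0.658). Its negative sign thus rested on liver 5. With Nr1i2 it was r = -0.559 (exact permutation p = 0.109, adjusted p = 0.771) with rho = -0.762 (exact permutation p = 0.0368). Centred within arrays 1 to 4 and 5 to 8, the r of Cyp3a25 with Nr1i2 was -0.193. Cyp3a13, which is found in intestine as well as liver, ranged 1.57-fold, from 2986.7 in liver 4 over a median of 3769 to 4700.1 in liver 6. Its r was 0.348 with Nr1i3 (exact permutation p = 0.409, adjusted p = 0.669) and 0.219 with Nr1i2 (exact permutation p = 0.587, adjusted p = 0.948).

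Within the Cyp3a family, Cyp3a11 and Cyp3a25 correlated at r = 0.673 (exact permutation p = 0.0706, adjusted p = 0.572) and rho = 0.833 (exact permutation p = 0.0154). Cyp3a11 and the shared probe set correlated at r = 0.765 (exact permutation p = 0.0287, adjusted p = 0.518). Between Cyp3a25 and the shared probe set, r was 0.517 (exact permutation p = 0.137) and rho 0.929 (exact permutation p = 0.00223). The unadjusted shares of all tested probe sets were 9.31% for Cyp3a11 and 10.2% for Cyp3a25. Cyp3a13 stood apart, with r of -0.0360 to Cyp3a11 and 0.156 to Cyp3a25. Between families, r with Cyp3a11 was 0.36 for Cyp2b9, 0.29 for Cyp2b10 and 0.16 for Cyp2b13.

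**Figure D4:**
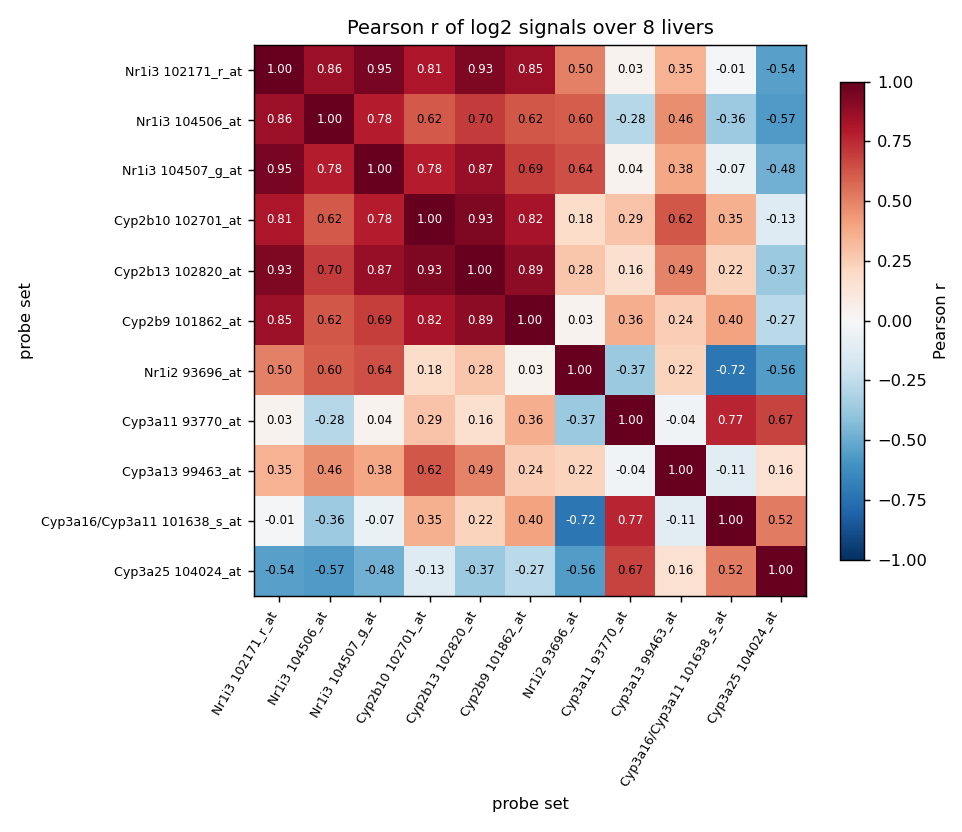
Pearson's r over the 8 livers between the 11 tested member probe sets, each axis listing gene and probe set and colour and number giving r. The Nr1i3 and Cyp2b block is positive throughout, from 0.62 upwards, whereas Nr1i2 is negative with Cyp3a11, Cyp3a25 and the shared probe set. Centred within arrays 1 to 4 and 5 to 8, the latter values were 0.295, -0.193 and -0.338.

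**Figure D5:**
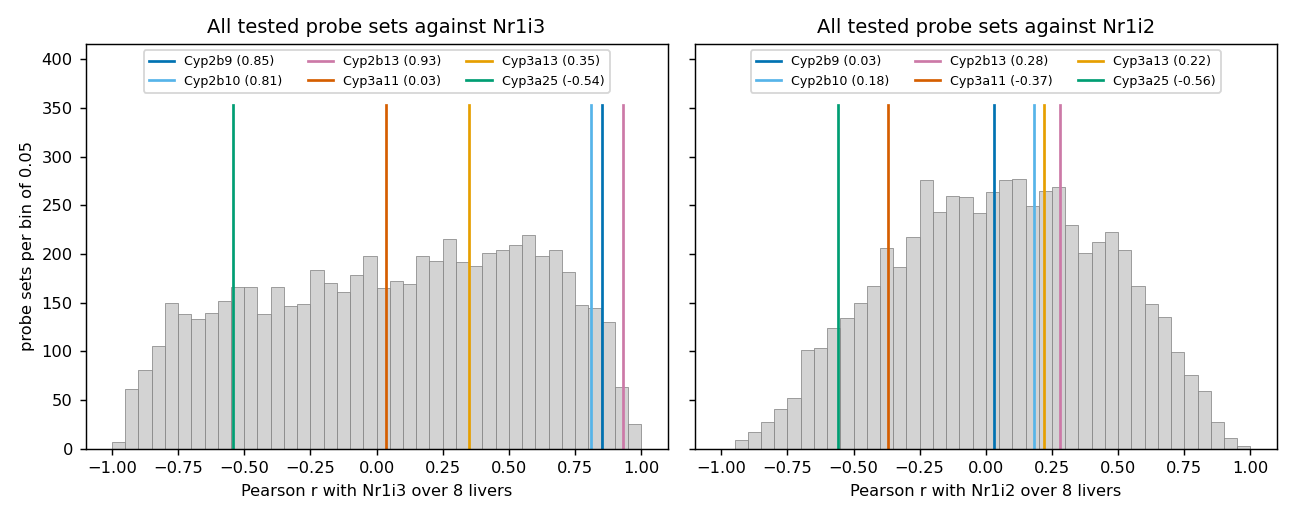
Number of tested probe sets (vertical axis, bins of 0.05) by their Pearson's r with Nr1i3 (left) and Nr1i2 (right), with coloured lines for the 6 tested cytochrome genes. The Cyp2b genes lie at 0.81 to 0.93 in the left panel, in the upper tail of a broad distribution, and at 0.03 to 0.28 in the right one.

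The distribution of r with Nr1i3 across the array was wide, with a median of 0.0914. The genes most like 4 members are named next. They are the highest of all tested probe sets, so their r is high by selection and says nothing of that width. Those most like Nr1i3 were Fbxo9 (r = 0.990), Pgm1 (0.985), Cdk18 (0.984), Bri3 (0.980) and Idh2 (0.978), all lowest in liver 4 and highest in liver 5. Pgm1 encodes a phosphoglucomutase and Idh2 the mitochondrial NADP-dependent isocitrate dehydrogenase. Closest to Cyp2b10 were Fh1 (0.977), Slc17a1 (0.966), Pipox (0.960), Crat (0.958) and Rdh16 (0.949), all lowest in liver 4 and highest in liver 3. Closest to Cyp3a11 were Fbp1 (0.965), Cyb5a (0.964), Pcbd1 (0.956), Pak1ip1 (0.940) and Ndufa5 (0.938). Cyb5a encodes cytochrome b5, which can pass electrons to cytochromes P450. Closest to Nr1i2 were Atg4b (0.969), Sgce (0.958), Akap8 (0.958), Htra2 (0.949) and Rflnb (0.925). These values describe likeness over 8 livers, and no probe set passed adjustment for any of the 4 genes, where the smallest exact permutation adjusted p was 0.0770 for Nr1i3. For Cyp2b10 12.5% of tested probe sets had an unadjusted p under 0.05. Slc17a1, Ndufa5 and Akap8 were read on probe sets of shared sequence, so their signals may include related genes.

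Other genes of xenobiotic metabolism were taken from a list of 108, of which 76 were on the array and 65 were tested. In the typical-variance test 19 of 65 passed, against 11.3% of all tested probe sets. With Nr1i3, 15 had a positive and 7 a negative r at an unadjusted p under 0.05, against 10.5% and 8.42% of all tested probe sets, and with Nr1i2 0 and 1 did, against 4.4% and 2.38%. Those with the largest r to Nr1i3 were Ces1d (r = 0.939), a carboxylesterase, Aldh3a2 (0.930), a fatty aldehyde dehydrogenase, Cyb5r3 (0.921), cytochrome b5 reductase, Cyp7b1 (-0.911), an oxysterol hydroxylase, and Cebpa (0.902), a hepatocyte transcription factor. Their adjusted p lay between 0.119 (Ces1d) and 0.133 (Cebpa). The probe sets of Ces1d and Cyp7b1 are of shared sequence, so their signals may include related genes. The 1 gene under that level with Nr1i2 was Abcb4, the phospholipid exporter (r = -0.698, exact permutation p = 0.0465, adjusted p = 0.719). Rxra, the retinoid X receptor partner of CAR, named after its values were seen, read 1010.9 at its lowest (liver 4) and 1448.7 at its highest (liver 6), with r = 0.829 to Nr1i3 (exact permutation p = 0.00667, adjusted p = 0.141).

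The 10 most variable genes of that list that passed the variance test were mostly other cytochromes. Cyp2c39 ranged 8.06-fold and Cyp2c38 3.25-fold, both lowest in liver 4 and highest in liver 5 as Nr1i3 was. Cyp4a14 (8.99-fold), Cyp4a10 (3.44-fold) and Cyp2f2 (3.13-fold) were lowest in liver 4 too, whereas Cyp7b1 (3.74-fold) was highest there. The probe sets of Cyp2c38, Cyp4a10 and Cyp7b1 are of shared sequence, so their signals may include related genes. Cyp7a1, the rate-limiting enzyme of bile acid synthesis, ranged 2.85-fold with its lowest signal in liver 2. Gstm2, a glutathione transferase, ranged 4.81-fold and was highest in liver 8. G6pc and Thrsp ranged 6.21-fold and 2.98-fold, both lowest in liver 4. Of 14 tested cytochromes on the list, 10 were lowest in liver 4 and 8 passed the variance test. Of 23 tested phase II enzymes, 7 were lowest in liver 4 and 4 passed. Over all tested probe sets the shares were 22.6% lowest in liver 4 and 11.3% past the variance test, and the phase II counts lie near them.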

How the data were processed

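Liver RNA of 8 mice was measured on Affymetrix mouse U74Av2 arrays read on a Hewlett-Packard GeneArray scanner, per the labels. The authors deposited a linear intensity for each probe set of each array. Which image software and scaling target made these values is not given in the sources used here. Trimmed means (2% at each end) differed by 0.00269% between arrays, so intensities were used as deposited. Values under the 10th percentile (11.2) were raised to it before log2. Tested were the 6211 of 12422 non-control probe sets above the median mean log2 signal. A gene was represented by its brightest probe set. Variances were tested against a robust loess curve (span 0.3, 7 degrees of freedom) and with limma 3.58.1 in R 4.3.3, and correlations by exact permutation in Python 3.11.15. Of the tests, the typical-variance test and the permutation test of Pearson's r were checked on simulated data. The number of arrays limits the precision, and p-values measure the spread between these 8 samples only.

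Members, lists and tests were chosen with earlier results of these data known. Named were all members, listed pathway genes (the 10 most variable among those past the variance test and up to 5 by r with each receptor) and the 5 genes most like 4 members. Names came from the platform annotation, sequences from RefSeq, with a start region for all 10 genes. The marker lists of lymphocytes (2 tested), endothelial cells (3), stellate cells (4), and pericentral and periportal hepatocytes (4 each) had 0, 0, 2, 1 and 0 genes past the variance test, against 11.3% of all tested probe sets.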

Additional observations from a re-analysis of the deposited data

Results flagged for a closer look

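Cyp3a25 in liver 5 was flagged because that liver stood far from the others. Its signal of 3724.6 lay below the next lowest, 6661.4 in liver 8, by a gap of 0.724 of the whole log2 range, which is above Dixon's critical value for 8 samples. Chance alone flags about 1 in 20 such groups, and 13 probe sets were examined. The cause was not tested.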

How the results depend on the processing

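The 4 variable members became 0 under limma, 2 without livers 4 and 8, and 2 to 4 with single livers left out. Those called without livers 4 and 8 were Cyp3a25 and Cyp3a16. Cyp3a16 was not among the 4, because over all livers it was too dim to test. It entered when the signal filter was drawn anew without livers 4 and 8. With all non-control probe sets tested over all livers, Cyp3a16 was not called. Without livers 4 and 8 the adjusted p of Cyp2b13 was 0.153. Cyp3a25 lost its call with a common median (adjusted p = 0.141), with centring within arrays 1 to 4 and 5 to 8 (0.146) and without liver 5. The 0 receptor-target pairs past adjustment stayed 0 under every setting of the permutation test and with each single liver left out, and became 2 under limma regression. The 3 pairs with an unadjusted p under 0.05 became 0 without livers 4 and 8 and 0 on the Nr1i3 probe set 104506_at. They became 2 on 104507_g_at, and 1 to 4 with single livers left out. The Nr1i3-Cyp2b pairs among them became 1 by Spearman's rho, 0 without livers 4 and 8, 0 on 104506_at and 2 on 104507_g_at. With single livers left out, these Nr1i3-Cyp2b pairs became 1 to 3 (1 without liver 4).

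With 1 setting changed at a time, no Nr1i3-Cyp2b correlation changed sign. Without livers 4 and 8 on the other Nr1i3 probe sets, some did. On 104506_at r was then -0.161 with Cyp2b9, -0.284 with Cyp2b10 and 0.00967 with Cyp2b13. On 104507_g_at it was -0.0528, 0.0704 and 0.539 in the same order. Correlations of other pairs changed sign as well. By Spearman's rho, Nr1i2 gave -0.0714 with Cyp2b9 and -0.119 with Cyp2b10. Nr1i3 with Cyp3a11 gave -0.283 on 104506_at, -0.230 under quantile normalization and -0.680 without livers 4 and 8. Centring turned Nr1i2 with Cyp3a11 to 0.295. Without livers 4 and 8, Nr1i3 with Cyp3a13 gave -0.381, and Nr1i2 gave -0.464 with Cyp2b9, -0.629 with Cyp2b10, -0.0641 with Cyp2b13 and -0.165 with Cyp3a13. With single livers left out, r ranged from -0.253 to 0.470 (Nr1i3 with Cyp3a11), -0.239 to 0.662 (Nr1i3 with Cyp3a13), -0.640 to 0.0141 (Nr1i3 with Cyp3a25), -0.586 to 0.328 (Nr1i2 with Cyp2b9), -0.707 to 0.658 (with Cyp2b10), -0.339 to 0.628 (with Cyp2b13) and -0.169 to 0.409 (with Cyp3a13). A common median shifted arrays by -0.10 (liver 8) to 0.11 (liver 3) in log2. No paired analysis was possible because all samples form 1 group. The causes were not tested.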

Other observations

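The genes most like Cyp3a25 over the 8 livers, looked up after its values were seen, were Msh3 (r = 0.991), a mismatch repair gene, Inpp5b (0.982), Fbxo8 (0.976), Itfg1 (0.966) and Wwtr1 (0.965). All 5 had their lowest signal in liver 5, for Inpp5b 56.8 there against a highest signal of 768.4 in liver 2. The Inpp5b probe set is of shared sequence. The smallest adjusted p over 6210 probe sets was 0.180, so none passed.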
